A study of Mus musculus with 10 samples.

Results

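Histone chaperones are proteins that carry histones and place them on DNA or take them off, and 10 mouse genes for them or for their close partners were followed here through the initial phase of reprogramming. The genes were listed by symbol as Chaf1a, Chaf1b, Asf1a, Asf1b, Nasp, Hat1, Hira, Daxx, Atrx and Ssrp1. All their probe sets that the platform's gene table gives to 1 gene alone were taken. Of the 10 genes 8 had at least 1 such probe set, 23 probe sets in all. Over the whole platform 18193 genes were measured by 34945 probe sets of 1 gene each. Chaf1a, the large subunit of chromatin assembly factor CAF-1, and Ssrp1, a subunit of the FACT complex, were not analysed here. Among the members CAF-1 is therefore read through Chaf1b alone, and its subunit gene Rbbp4 is given with the partner lists. Nasp had 5 probe sets, Atrx 7, Hira 4, Chaf1b and Asf1a 2 each, and Asf1b, Hat1 and Daxx 1 each.

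All 10 Affymetrix arrays held total RNA of secondary inducible mouse embryonic fibroblasts from a 129/SvJ x C57/B6 hybrid strain, with 2 arrays in each of 5 groups. In these cells doxycycline turns on transgenes for the reprogramming factors OSKM, and the control cells carry the same transgenes. The induced cells had 96 h of doxycycline, given in the labels as 2 ug/ul, in medium with 15% serum, and the labels sort them into cohorts by mean division number, 0, 1, 2, and 3 or more. The control cells were uninduced and serum-starved for 96 h in medium with 0.5% serum. Each comparison with the control thus changes the drug, the serum and the division history together. The labels number the arrays of a group as replicates, and for 4 arrays as biological ones, but name no animals or cultures, so p-values measure the spread between these arrays, which may be technical in part. The submitters' processing notes name RMA for 4 arrays, those of 3 or more divisions and of the control, and no tool for the 6 arrays of 0, 1 and 2 divisions, which are also titled in another style, so the arrays were taken as 2 sets. The set therefore cannot be told apart from the group when a cohort of 0 to 2 divisions is compared with the control. The same holds when such a cohort is compared with that of 3 or more divisions. Values are log2 intensities after quantile normalization, and a difference was called at an adjusted p under 0.05 in limma, adjusted over all 45037 probe sets that are not control probe sets.

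New nucleosomes are needed each time a cell copies its genome. In that pathway NASP keeps a store of soluble H3 and H4, HAT1 acetylates new H4, ASF1 takes the H3-H4 dimer and hands it on, and CAF-1 deposits it at replication forks through its contact with PCNA. The HIRA complex and the DAXX-ATRX pair deposit the variant H3.3 without replication, HIRA mainly at active genes and DAXX-ATRX at repeats and telomeres. In mouse fibroblasts CAF-1 is known from work on reprogramming as a factor whose depletion eases the conversion to pluripotent cells.

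The promoters of the paired ASF1 genes, of the CAF-1 member measured here and of Nasp are shown. Chaf1b, Asf1b and Nasp were picked as the members with the largest changes. Asf1a was picked since it changed least among the genes that act on new histones. Each is a window of 300 bases from RefSeq on build GRCm38.p6, from 250 bases before to 50 bases after the gene start, written 5′ to 3′ on the gene's strand. Capitals mark the E2F core on either strand, spelled TTCCCGC, in another form TTCGCGC, in a further form TTGCCGC, and also TTGGCGC. They also mark the CHR letters, TTTGAA, on either strand. E2F and the complexes that bind CHR elements are regulators of genes of S phase and mitosis.
Chaf1b, chr16:93883651-93883950, plus strand: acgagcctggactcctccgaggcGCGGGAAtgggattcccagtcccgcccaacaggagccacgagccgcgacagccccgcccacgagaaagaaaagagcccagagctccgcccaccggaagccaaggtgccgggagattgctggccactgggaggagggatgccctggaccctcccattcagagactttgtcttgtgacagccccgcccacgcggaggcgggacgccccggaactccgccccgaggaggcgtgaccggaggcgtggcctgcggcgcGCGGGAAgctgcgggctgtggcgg
Asf1b, chr8:83955444-83955743, plus strand: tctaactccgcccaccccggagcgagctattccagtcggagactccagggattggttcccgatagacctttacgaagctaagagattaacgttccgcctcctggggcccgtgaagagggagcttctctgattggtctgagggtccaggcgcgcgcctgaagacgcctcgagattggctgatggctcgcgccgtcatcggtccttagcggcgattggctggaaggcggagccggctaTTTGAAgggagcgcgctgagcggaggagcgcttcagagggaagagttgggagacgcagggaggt
Nasp, chr4:116627902-116628201, minus strand: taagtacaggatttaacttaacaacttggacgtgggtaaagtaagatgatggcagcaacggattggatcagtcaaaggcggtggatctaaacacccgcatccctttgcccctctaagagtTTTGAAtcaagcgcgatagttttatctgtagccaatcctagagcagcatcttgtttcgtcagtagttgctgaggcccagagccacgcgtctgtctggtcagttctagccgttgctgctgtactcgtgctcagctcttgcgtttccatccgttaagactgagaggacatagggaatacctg
Asf1a, chr10:53596711-53597010, plus strand: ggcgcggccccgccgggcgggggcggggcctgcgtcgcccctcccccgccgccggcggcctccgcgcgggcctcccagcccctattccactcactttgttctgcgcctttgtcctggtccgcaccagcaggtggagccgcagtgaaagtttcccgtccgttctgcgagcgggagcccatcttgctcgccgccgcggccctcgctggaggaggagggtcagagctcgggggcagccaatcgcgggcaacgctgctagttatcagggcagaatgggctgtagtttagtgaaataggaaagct

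Chaf1b held the E2F core at bases 24 and 277 of its window, both on the opposite strand, Asf1b held the CHR letters at base 237 and Nasp held them at base 121. The Asf1a window had neither. Of the other genes measured here, Hira, Hat1 and Daxx had neither, and Atrx held the E2F core at base 251 on the opposite strand. Hira is among the genes that rose below, and Atrx is not. Whether the letters go with the changes was not tested. Over the 13 windows of the 10 genes, 4 had the E2F core and 4 had the CHR letters. Among all 32851 promoter windows of this length 9.57% had the E2F core and 17.9% the CHR letters. A match is a description of letters and not of a bound site.

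Among the comparisons with the control, that of 3 or more divisions had both groups in the same set of arrays. In that cohort Chaf1b of CAF-1, Asf1b and Nasp, which handle new histones, rose by more than 2-fold and Hira by 1.91-fold, while Asf1a, Hat1, Daxx and Atrx did not pass the test. Of the 8 genes, each read by its probe set of highest mean level, 4 rose, 0 fell and 4 did not pass, and the median log2 change was 0.88. Over all genes the share called higher was 15.1% and the median log2 change was 0.02. Counted by probe set, 6 of 23 rose and 0 fell, against 11.3% of all probe sets called higher, 9.38% called lower and 20.7% called in either direction. Of the probe sets, 10 of 23 had arrays of 3 or more divisions wholly above the control, against 30.6% of all. The members were picked with earlier results of these arrays known, so these counts describe them and test nothing.

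**Figure D1:**
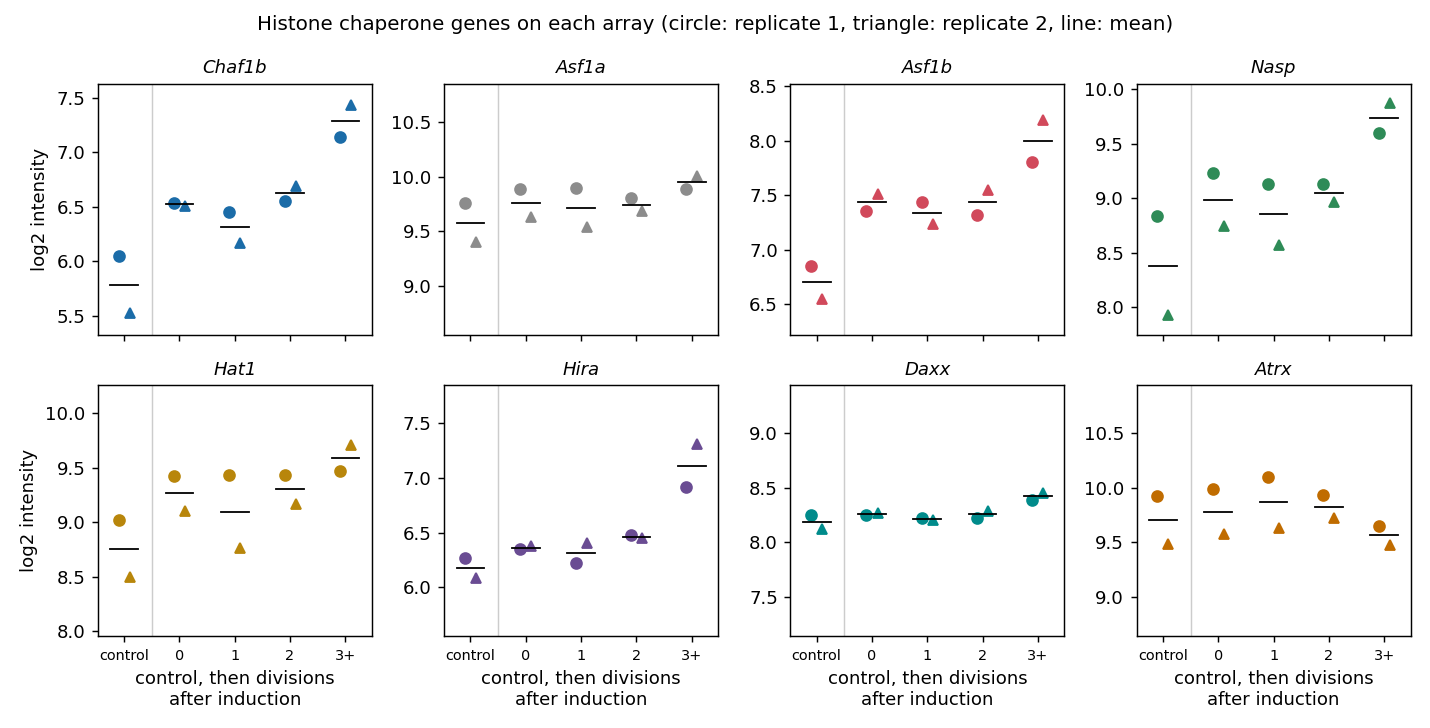
Log2 intensity (vertical axes, each spanning the same 2.3 units) of the highest-mean probe set of the 8 measured genes, on the 2 arrays of the control and of each cohort by average divisions (horizontal axis). Chaf1b, Asf1b, Nasp, Hat1, Hira and Daxx had both arrays of 3 or more divisions above all the others, while Atrx did not.

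Chaf1b, the middle subunit of CAF-1, read 7.14 and 7.43 on the arrays of 3 or more divisions, against 6.05 and 5.52 on the control arrays. The groups stood apart, and so did this cohort from every other array. The log2 change was 1.50 ± 0.19 (SE), or 2.83-fold (limma adjusted p = 0.00138). In the cohorts of 0 to 2 divisions Chaf1b read 6.54 and 6.51 after 0 divisions, 6.46 and 6.17 after 1, and 6.55 and 6.69 after 2. All 6 of these arrays lay above both control arrays and below both arrays of 3 or more divisions. They belong to the other set, so set and group cannot be told apart in either difference. By group mean the order was control, 1, 0, 2, and 3 or more divisions, with no overlap between neighbours, but the means of 0 and 2 divisions differed by only 0.10 ± 0.19 (SE, adjusted p = 0.976). The other Chaf1b probe set, 1431275_at, ran from 4.10 to 4.50 over the 10 arrays and had a log2 change of -0.14 ± 0.14.

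Asf1b, the form of ASF1 that is made mostly in dividing cells, read 7.80 and 8.19 after 3 or more divisions, against 6.85 and 6.55 in the control. Its groups did not overlap, and the log2 change was 1.30 ± 0.18 (SE), 2.46-fold (limma adjusted p = 0.00171). The cohorts between them had 7.36 and 7.51 after 0 divisions, 7.44 and 7.24 after 1, and 7.32 and 7.55 after 2, all above the control, below 3 or more divisions and overlapping each other. Its paralog Asf1a, which also serves HIRA, had 9.88 and 10.01 after 3 or more divisions, against 9.76 and 9.40 in the control. Those groups did not overlap either, but the difference of 0.37 ± 0.18 did not pass (adjusted p = 0.197). Asf1a overlapped the control in each cohort of 0 to 2 divisions.

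The difference between the paralogs was also taken within each array, where its size depends on the probe sets and only its shift between arrays can be read. Asf1b minus Asf1a on the log2 scale was -2.08 and -1.82 after 3 or more divisions, against -2.91 and -2.84 in the control. Within the cohorts of 0, 1 and 2 divisions it had a slope of 0.01 log2 units per division (two-sided exact permutation test over 6 arrays, p = 0.978, adjusted p = 0.978 over 2 such slopes), where the smallest p the design allows is 0.0222. Chaf1b minus Hira, put in place of the planned Chaf1a minus Hira, had a slope of 0.00188 per division (exact permutation p = 0.978, adjusted p = 0.978).

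Nasp, the store-keeper of soluble H3-H4, read 9.60 and 9.87 after 3 or more divisions, against 8.84 and 7.93 in the control. The groups did not overlap, although the control arrays themselves were 0.91 apart. The log2 change was 1.36 ± 0.32 (SE), 2.56-fold (limma adjusted p = 0.018). This call rests on few arrays: it was lost without control replicate 2 (0.90, adjusted p = 0.0801), without replicate 1 of the cohort (1.49, adjusted p = 0.054) and without the second one (1.22, adjusted p = 0.123). After 0 divisions Nasp had 9.23 and 8.74, after 1 division 9.13 and 8.57, and after 2 divisions 9.13 and 8.96. These cohorts overlapped each other. Its 4 other probe sets had mean levels of 3.65 to 4.18, and none of them passed.

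Hat1, the acetyltransferase of new H4, had 9.47 and 9.71 after 3 or more divisions, against 9.02 and 8.50 in the control. The groups did not overlap and the log2 change was 0.83 ± 0.26 (SE), which did not pass (adjusted p = 0.056). Here the arrays numbered 1 and 2 differed in the same way in 4 of the 5 groups, with replicate 1 the higher by a median of 0.32 over the 5. The exception was the cohort of 3 or more divisions, where replicate 1 minus replicate 2 was -0.24. The block takes the same shift for all groups, so for Hat1 it does not describe this cohort. With the replicate number as a block Hat1 rose by 0.83 ± 0.19 (adjusted p = 0.0107). The cohorts of 0 to 2 divisions read 9.43 and 9.10, 9.43 and 8.77, and 9.44 and 9.17 in that order of divisions, so replicate 1 was higher in each.

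Hira, the core of the complex that deposits H3.3 outside replication, had 6.92 and 7.31 after 3 or more divisions, against 6.27 and 6.09 in the control. The groups stood apart and the log2 change was 0.93 ± 0.15 (SE), 1.91-fold (limma adjusted p = 0.00364). In the other cohorts Hira read 6.35 and 6.37 after 0 divisions, 6.22 and 6.41 after 1, and 6.47 and 6.45 after 2. The cohort of 1 division overlapped the control, and none of these differences from the control passed. A second Hira probe set, 1436241_s_at, read 6.41 and 6.53 after 3 or more divisions, against 5.75 and 5.87 in the control, and rose by 0.66 ± 0.15 (adjusted p = 0.0147). Another, 1450049_a_at, rose by 0.98 ± 0.27 (adjusted p = 0.0377), a call lost in each fit without 1 of the 2 control arrays (adjusted p = 0.106 and 0.132) and in that without the second array of the cohort (0.64, adjusted p = 0.239). The call of 1436241_s_at was lost without control replicate 1 (0.61, adjusted p = 0.0802) and without the second array of 3 or more divisions (0.61, adjusted p = 0.102). The last, 1459103_at, read 3.08 to 3.46 on all 10 arrays and did not pass.

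Daxx, the H3.3 chaperone that works with ATRX, had the smallest range over the 10 arrays among the highest-mean probe sets of the members. It read 8.39 and 8.46 after 3 or more divisions, against 8.25 and 8.12 in the control, a difference of 0.23 ± 0.11 that did not pass (adjusted p = 0.17). After 0 to 2 divisions it lay between 8.21 and 8.29.

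Atrx, the chromatin remodeller that partners DAXX, did not pass the test without a block on any probe set. Its probe set of highest level read 9.65 and 9.47 after 3 or more divisions, against 9.92 and 9.48 in the control, and overlapped (-0.14 ± 0.22, adjusted p = 0.74). In this comparison all 7 probe sets had a change below 0, from -0.57 to -0.06. After 0, 1 and 2 divisions the probe set of highest level had changes of 0.08, 0.17 and 0.13, each ± 0.22, and did not pass either. On 5 of the 7 replicate 1 was above replicate 2 in all 5 groups, by medians of 0.24 to 0.51. With the replicate block 2 of the 7 fell, 1450051_at by 0.57 ± 0.14 (adjusted p = 0.0157) and 1420946_at by 0.49 ± 0.13 (adjusted p = 0.0161). Probe set 1450051_at had 7.64 and 7.36 after 3 or more divisions, against 8.49 and 7.66 in the control, and averaged 8.01 ± 0.28, 7.83 ± 0.36 and 7.74 ± 0.37 (SD, n = 2) after 0, 1 and 2 divisions. Its slope over 0, 1 and 2 divisions did not pass, with the block (adjusted p = 0.352) or without it (adjusted p = 0.865).

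With the block, 7 member probe sets rose and 2 fell after 3 or more divisions, against 15.0% and 14.3% of all probe sets. By gene, 5 of 8 rose, against 19.4% of all genes. Nasp 1416042_s_at kept its call with the block (1.36 ± 0.24, SE, limma adjusted p = 0.00235). Its replicate 1 minus replicate 2 was -0.27 after 3 or more divisions, against a median of 0.48 over the groups. For Nasp too, then, the block does not describe this cohort.

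**Figure D2:**
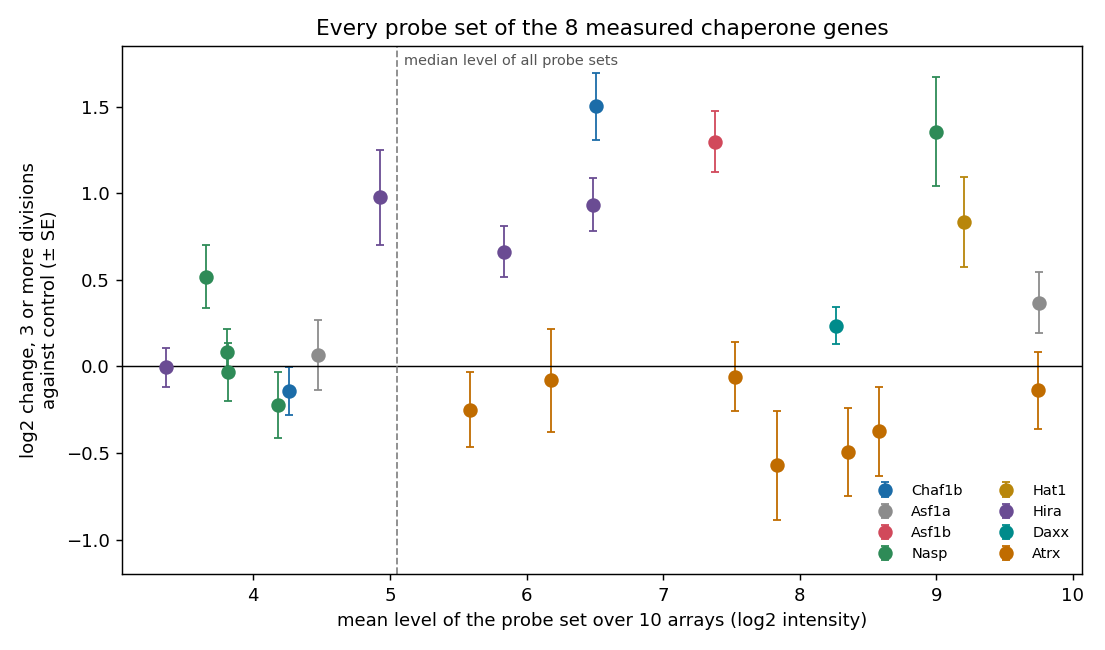
Log2 change after 3 or more divisions against the control (vertical axis, ± SE, n = 2 arrays per group) for each of the 23 probe sets, against its mean level over 10 arrays (horizontal axis, log2 intensity), coloured by gene, with the median level of all probe sets at 5.05 dashed. The 7 Atrx probe sets lie below 0, and 5 of the 6 called rises are above the dashed line.

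No detection calls were given, so which probe sets lay above background is not known. Of the 23 probe sets 15 had a mean above 5.05, the median over all probe sets, and 8 below. Among the 6 that rose, 5 were above that level. For Chaf1b and Nasp, the probe sets that did not move with the brightest one were all below it.

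Induced cells of the 0-division cohort were compared with the starved control to see whether the chaperone genes had moved in cells counted as undivided. Of the 23 member probe sets 0 were called, against 0.122% of all probe sets, and at an unadjusted p under 0.05 there were 2, against 4358 of the 45037. Those with the largest differences were Chaf1b at 0.74 ± 0.19 (adjusted p = 0.238) and Asf1b at 0.73 ± 0.18 (adjusted p = 0.191), whose arrays did not overlap with the control. Nasp stood at 0.60 ± 0.32 and Hat1 at 0.51 ± 0.26. With the replicate block 0 members passed as well, against 1.82% of all probe sets, with 0.101 for Chaf1b and 0.0832 for Asf1b as adjusted p.

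After 1 division 0 member probe sets were called, against 0.673% of all, and 3 had an unadjusted p under 0.05, against 5453 of the 45037. These were Chaf1b, Asf1b and the dim Hira probe set 1459103_at, which was lower by a log2 change of -0.27 ± 0.11 (adjusted p = 0.388). Chaf1b differed from the control by 0.53 ± 0.19 and Asf1b by 0.64 ± 0.18 (adjusted p = 0.318 and 0.181). After 2 divisions the count was again 0, against 4.15% of all probe sets, with 2 at an unadjusted p under 0.05, against 8086 of the 45037, a smaller share than over all probe sets. Chaf1b stood at 0.84 ± 0.19 (adjusted p = 0.0543) and Asf1b at 0.73 ± 0.18 (adjusted p = 0.0621), near the threshold. Both passed with the replicate block, Chaf1b at an adjusted p of 0.023 and Asf1b at 0.0293, which made 2 higher members against 5.72% of all probe sets. Chaf1b also passed without control replicate 1 (1.10, adjusted p = 0.0448). The comparisons with the control share its 2 arrays, so a low control array lifts all of them.

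**Figure D3:**
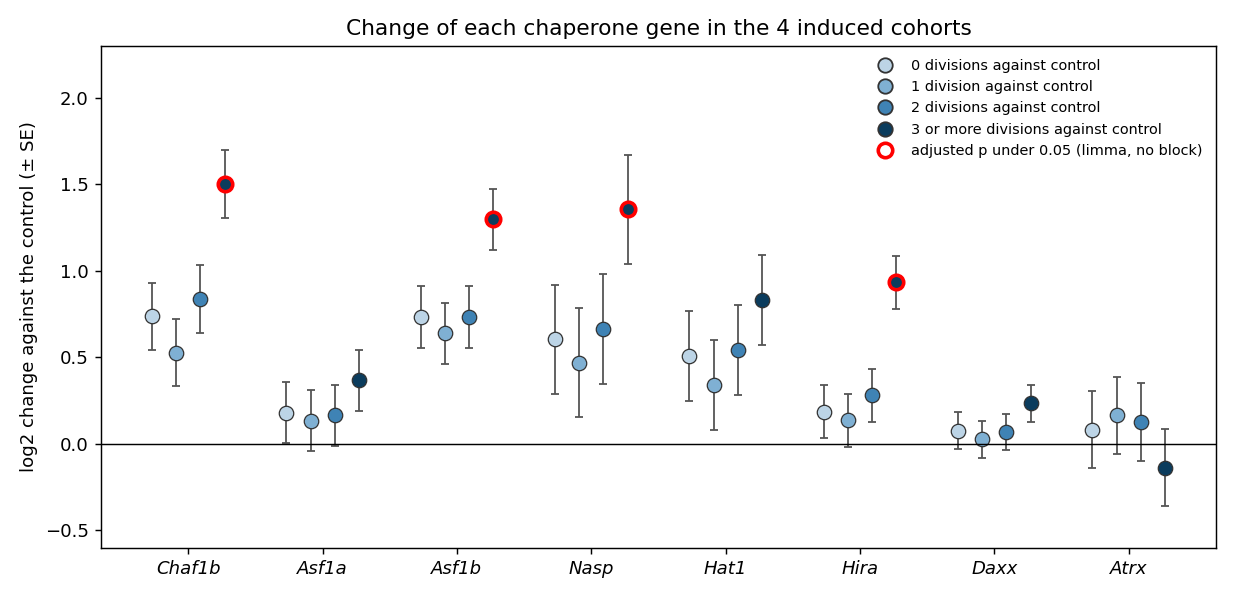
Log2 change against the control (vertical axis, ± SE, n = 2 arrays per group) of the highest-mean probe set of each gene in the cohorts of 0, 1, 2, and 3 or more divisions, light to dark, with red rims for calls without a block. Red rims appear at 3 or more divisions for Chaf1b, Asf1b, Nasp and Hira, where the changes ran from 0.93 to 1.50.

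Within the cohorts of 0, 1 and 2 divisions, which share a set, the medium and the drug, the chaperone genes gave small differences. For 2 divisions against 0 the 8 genes differed by -0.02 to 0.10, and 0 member probe sets were called, against 0.0488% of all, with 0 members and 3217 of all probe sets at an unadjusted p under 0.05. Asf1b differed by 8.54e-05 ± 0.18 and Nasp by 0.06 ± 0.32. The slope over the 3 cohorts gave 0 calls among members, against 0% of all probe sets, and 0 members at an unadjusted p under 0.05 (3602 over all probe sets). By this slope 631 probe sets passed with the replicate block, none of them a member. 

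Other genes of histone handling were taken from lists by role, 58 of 62 of them measured, each by its probe set of highest mean level, and are given for 3 or more divisions against the control. Among 9 partners of CAF-1, ASF1 and new histones 3 rose and 0 fell (4 and 0 with the replicate block), with a median log2 change of 0.45. Without the block they were Mcm2, a helicase subunit that also holds H3-H4 (1.50 ± 0.23, SE), Mms22l, which with Tonsl binds new histones at damaged forks (1.10 ± 0.20), and the histone importin Ipo4 (0.67 ± 0.13). Rbbp4, a further CAF-1 subunit gene, had a change of 0.25 ± 0.16 and Pcna one of 0.71 ± 0.25, and neither passed.

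Of 9 chaperones of H2A-H2B and of transcription 7 rose and 0 fell (8 and 0 with the replicate block), with a median of 0.79. Nucleolin, Ncl, led at 1.32 ± 0.11, before Set (1.24) and Nap1l1 (1.06), and Supt16, the FACT partner of Ssrp1, rose by 0.79 ± 0.14. In the H2A.Z list 2 of 5 rose, the variant's gene H2az1 (1.58 ± 0.24) and its eviction chaperone Anp32e (0.83 ± 0.12). All 3 measured genes of centromere histone loading rose, Cenpa by 2.02 ± 0.20, Oip5 by 1.29 and Mis18a by 0.41.

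Among the 6 H3.3 deposition partners 0 rose and 1 fell, with a median of -0.28, and with the replicate block 1 rose and 1 fell. Ubn1 and Ubn2, subunits of the HIRA complex, had changes of -0.27 ± 0.22 and -0.29 ± 0.17, and Cabin1, another subunit, one of 0.36 ± 0.15, and none of these passed without the block. The fall was that of H3f3b, at 5.63 ± 0.35 against 7.55 ± 0.57 in the control (SD, n = 2). It is read by its only probe set of 1 gene, and H3.3 probe sets that the platform table gives to several genes were not used. H3f3a, the other H3.3 gene, had a change of -0.35 ± 0.36. Of 4 genes of histone mRNA supply 0 passed, the largest being Lsm11 at 0.49 ± 0.26.

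Genes of DNA replication and mitosis rose in the same comparison. In the replication list 12 of 15 rose (14 with the replicate block), with a median of 1.73, led by Uhrf1 (2.73), Cdt1 (2.55) and Mcm5 (2.32), and in the mitosis list 7 of 7 rose, with a median of 2.04, led by Anln (2.34). Each of these medians stood above the 0.88 of the chaperone genes. By the same lists the cohort of 0 divisions had medians of 0.98 and 1.21 with 0 calls (8 of 15 and 5 of 7 with the replicate block), and that of 2 divisions 1.13 and 1.45 with 7 and 6 calls (11 of 15 and 7 of 7 with the block). Over all genes, 0.104% were called higher after 0 divisions and 3.63% after 2 without the block. With the block these shares were 1.92% and 8.02%.

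**Figure D4:**
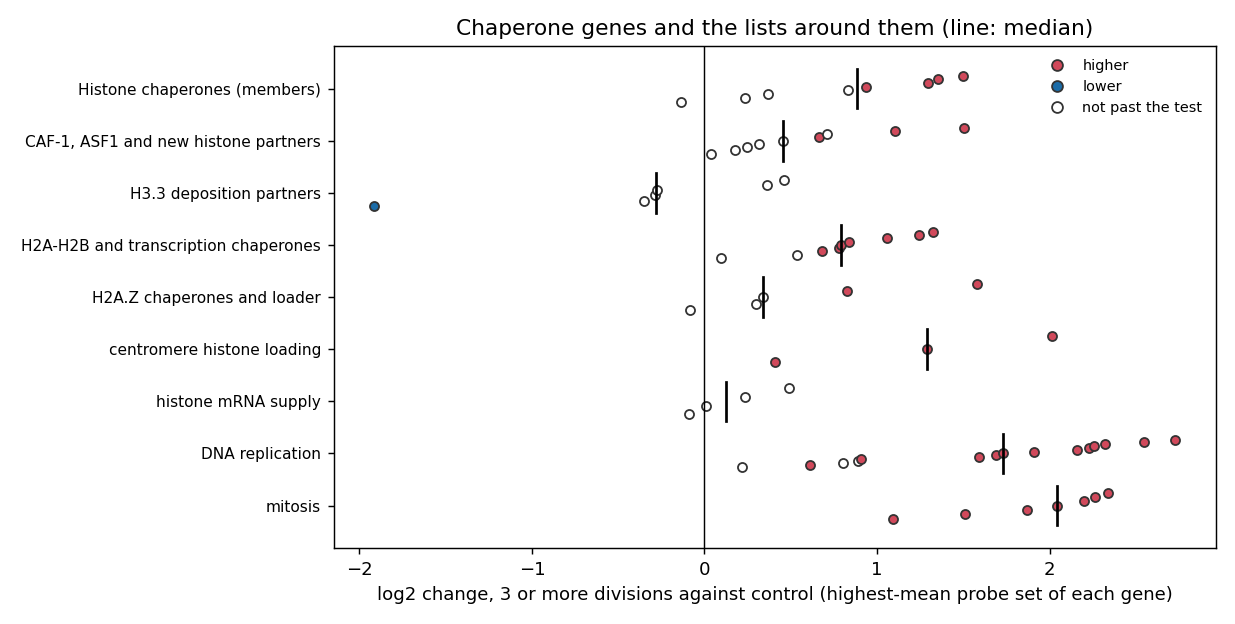
Log2 change after 3 or more divisions against the control (horizontal axis) of the highest-mean probe set of each gene in the chaperone genes and 8 lists (rows), with filled points for called genes and a line at each median. The median was 0.88 for the chaperones, 1.73 for DNA replication and -0.28 for the H3.3 partners.

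Outside the 10 chaperone genes, which were left out of the ranking, those whose profile over the 10 arrays lay nearest to that of Chaf1b were Cip2a, an inhibitor of a protein phosphatase, Incenp, a scaffold of the chromosomal passenger complex, and Mcm2. Nearness was the root mean square difference of log2 profiles after each gene's mean was taken off, among the 9096 genes in the brighter part of all genes, those over the median of mean levels. It was 0.11, 0.12 and 0.13 log2 units for these genes, against a median of 0.54 over the genes compared. By the same measure, among the members themselves, Asf1b was the nearest to Chaf1b at 0.13, slightly nearer than Mcm2, then Nasp at 0.17, Hira and Hat1 at 0.26 each, Asf1a at 0.38, Daxx at 0.43 and Atrx at 0.57.

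Other measures moved along the same groups. The 8 fibroblast markers summed to linear intensities of 46607 to 50119 after 3 or more divisions, against 81924 to 82214 in the control. The lowest single value among them in these groups was 7.40, for Pdgfra, and Vim, Col1a1 and Col1a2 lay far higher. The 5 epithelial markers summed to 138 to 149.9 in the control, 166 to 179 after 0 divisions, 283 to 303 after 1, 557 to 1004 after 2, and 2375 to 2415 after 3 or more. The 6 macrophage markers summed to 374 to 439 after 3 or more divisions, against 219.9 to 232 in the control, and the 5 endothelial ones to 346 to 401, against 135 to 139. Single markers of a list went different ways: after 3 or more divisions the arrays of Cd68 lay above the control and those of Lyz2 and Csf1r below it among the macrophage markers, and those of Tek lay above it and those of Kdr below it among the endothelial ones. Among the epithelial markers those of Cdh1, Krt8 and Krt19 lay far above the control. Krt18 read 3.92 and 3.78, against 3.57 and 3.47 in the control, and Epcam overlapped the control. Vim overlapped it too, while the other fibroblast markers lay below it. No marker was at 0. As a measure of RNA quality, the log2 difference between the 3-prime and 5-prime Actb probe sets was 0.49 and 0.50 after 3 or more divisions, against 0.26 on both control arrays. The part of these measures in the changes of the chaperone genes was not tested. In bulk RNA, fewer cells of a type and less RNA per cell cannot be told apart.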

How the data were processed

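Per the labels, RNA of 10 Affymetrix arrays was measured, 2 per group. The authors deposited 1 table of linear intensity for 45101 probe sets. RMA stands in the processing notes of 4 arrays, per the submitters' processing notes, and none of the sources used here names a tool for the remaining 6. Array medians of the deposited intensities were 31.4 to 33.95. The number of arrays limits the precision, and no detection calls were given.

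From these values a floor of 1, which moved 0 of them, log2 and quantile normalization of the 10 arrays were applied in R 4.3.3. The 64 control probe sets were left out and 45037 probe sets were fitted with limma 3.58.1 (lmFit, eBayes), 5 groups without a block (5 residual degrees of freedom), the slope on 6 arrays (4 residual degrees of freedom), with Benjamini-Hochberg adjustment, two-sided. Probe sets were named where the platform table gives 1 gene. The gene IDs of the 8 measured members were all found in the RefSeq table. The probe set of highest mean stood for a gene in counts by gene. On simulated data for 3 or more divisions against the control with 45037 probe sets, 71 of 100 changes of 1 log2 unit and 95 of 100 of 2 were called. Among the unchanged probe sets 11 were called. The simulated noise was independent between arrays, and far fewer probe sets were changed than the 20.7% called in the data. These shares therefore check the fit and do not give its power on these arrays.

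Same-numbered arrays deviated together from their group means, with correlations of 0.435 to 0.83 over 10 pairs of groups, which is the basis for treating equal numbers as pairs. The labels name no shared culture. Values with the replicate block are given beside member calls and list counts that differ with it.

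The members and lists were chosen with earlier results of these data known. Named genes were all members, up to 3 called genes of each list with the largest change and arrays that do not overlap, or the largest where none was called, and the 3 nearest to Chaf1b, besides members of lists named for their role. Those last were chosen after their values were seen. Chaf1a could not enter the planned slope against Hira or the search for nearest genes, since it was not analysed here. Alternatives were the block, leaving out each array, a floor of 16, no quantile step, median centring, 1 probe set per gene, brighter probe sets, only the arrays compared, and an intensity trend.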

Additional observations from a re-analysis of the deposited data

Results flagged for a closer look

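For 2 member probe sets every array of 1 cohort lay above the control and every array of another cohort below it. Whether the cohorts differ was not tested. How many of all probe sets meet this rule was not counted, so the number of members that do cannot be called unusual. Hira 1436241_s_at differed from the control by 0.66 after 3 or more divisions, by -0.27 after 1 division and by -0.22 after 2 divisions, and of these only the first passed limma's test. The Hira probe set of highest mean did not do this, with 0.14 after 1 division and 0.28 after 2. Nasp 1457113_at, a dim probe set with a mean of 4.18, differed by -0.22 after 3 or more divisions and by 0.42 after 2 divisions, and neither passed (adjusted p = 0.488 and 0.301). After 3 or more divisions, where 20.7% of all probe sets were called, 30.6% had arrays apart from the control and higher. No such share is given here for 1 or 2 divisions.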

How the results depend on the processing

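The 6 calls among member probe sets after 3 or more divisions became 3 to 5 when 1 array was left out, the fewest without replicate 2 of the cohort, and 5 to 9 under the other settings. Chaf1b, Asf1b and Hira 1450050_at kept their call in all of them. With a floor of 16 Nasp lost its call (adjusted p = 0.0665) and so did Hira 1450049_a_at (0.103), which also lost it with only the arrays compared (0.0518). Hat1 passed with the block, without quantile normalization (adjusted p = 0.0405), with median centring (0.031), with 1 probe set per gene (0.0497), among brighter probe sets (0.0422) and without control replicate 1 (0.049). Daxx passed with a floor of 16 (0.0304) and with median centring (0.0395), which lifts the median of the brighter probe sets by 0.09 against 0.01. After 2 divisions the count of members was 2 with the replicate block, 2 with median centring, 2 among brighter probe sets, 1 with 1 probe set per gene, and 0 to 1 with 1 array left out. In the other comparisons member counts were 0 under all settings run. Of 1541 member changes recomputed, 0 called ones turned sign and 139 uncalled ones did.

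Over all probe sets, the counts with the replicate block were 819 after 0 divisions, 1833 after 1, 4834 after 2, 389 for 2 against 0 divisions and 631 for the slope. With a floor of 16 they were 36, 93, 985 and 4 in the comparisons of 0, 1 and 2 divisions with the control and of 2 with 0 divisions. In only the arrays compared they were 0, 0, 136 and 0. With 1 probe set per gene 5020 passed after 3 or more divisions, 1114 after 2 and 10 for 2 against 0, and the intensity trend gave 1 for the slope. With 1 array left out the counts ran from 4410 to 7213 after 3 or more divisions, 1 to 32 after 0, 9 to 105 after 1, 138 to 913 after 2, 0 to 28 for 2 against 0, and stayed at 0 for the slope. The slope of Asf1b minus Asf1a ran from -0.0763 to 0.102 with 1 array left out and was -0.0103 with the mean of all probe sets, and that of Chaf1b minus Hira ran from -0.057 to 0.0356. The cause of these shifts was not tested, beyond fewer arrays or features. The block changed no other member call than those named with their values. A floor of 16 moved 41 member values, so differences of dim probe sets are the least certain. The comparison Chaf1b minus Hira was chosen after the gene table was seen.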
